A study of Mus musculus with 6 samples.

Results

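Nuclear-encoded oxidative phosphorylation genes are the genes of the cell nucleus that encode subunits of respiratory chain complexes I to IV and of the ATP synthase, complex V. They were taken by symbol from the deposited gene tables: the Nduf subunit families, Sdha to Sdhd, the Uqcr genes with Cyc1, the Cox4 to Cox8 families and the Atp5 genes, without pseudogenes. The rule found 85 genes among the 23406 named symbols. Complex I held 37 of them, complex II 4, complex III 9, complex IV 18 and complex V 17. The rule used names only and no measured value.

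The inner mitochondrial membrane carries these complexes. Complexes I and II pass electrons from NADH and succinate to coenzyme Q, complex III passes them on to cytochrome c, and complex IV passes them to oxygen. The proton gradient that complexes I, III and IV build up drives ATP synthesis by complex V. Most subunits come from the nucleus and a few from mitochondrial DNA, and in fibroblasts reprogrammed to pluripotency the use of oxidative phosphorylation is known to give way to glycolysis.

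The cells were mouse embryonic fibroblasts carrying OSKM, the set of reprogramming transcription factors Oct4, Sox2, Klf4 and c-Myc, and all RNA was taken at reprogramming day 7. Every group carried at least 1 floxed (Fl) allele of Adar1, the gene of the RNA editing enzyme ADAR1. KO cells were Fl/Fl and received 4OHT, 4-hydroxytamoxifen, which activates tamoxifen-inducible Cre (n = 2), and WT cells were Fl/Fl with vehicle (n = 2). MUT cells were Fl/E861A and received 4OHT (n = 1), and HET cells were Fl/E861A with vehicle (n = 1). E861A is an amino acid exchange in the catalytic domain of ADAR1 that abolishes editing, so that MUT cells keep the editing-deficient allele once the floxed one is deleted. The labels name neither the Cre driver nor the deleted exons. Since each library that received 4OHT also carried a floxed allele, what 4OHT or Cre does by itself cannot be told apart from what the loss of Adar does. Whether replicates are separate cultures is not stated, and the spread behind the p-values may therefore be technical.

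Values are FPKM, fragments per kilobase of transcript scaled to the sequenced fragments of the library, and differences are in log2(FPKM + 1). The libraries summed to 588991 to 664385 FPKM, their read depth is not known from the files, and replicates correlated at r = 0.995 across genes in KO and 0.995 in WT. Adar stood at 34.2 and 31.3 FPKM in KO, against 19.6 and 19.5 FPKM in WT, and at 33.0 FPKM in MUT, against 17.0 FPKM in HET. A value over the whole gene can miss the loss of single exons, so this level does not check the labels, and each direction given below rests on them. Cell type markers moved with the groups. All 8 pluripotency markers fell in KO, with summed levels of 24.4 and 9.96 FPKM in KO, against 647 and 537 FPKM in WT, and of 46.8 FPKM in MUT, against 696 FPKM in HET. Of 9 fibroblast markers 8 fell, and all 6 markers of dividing cells fell, with sums of 60.4 and 53.7 FPKM in KO, against 291 and 312 FPKM in WT, and 109 FPKM in MUT, against 423 FPKM in HET. Their part in the results on oxidative phosphorylation was not tested.

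Of the 85 genes, 81 passed a filter of at least 1 FPKM in at least 2 of the 6 libraries, and 73 of those averaged at least 50 FPKM. The 6 tested genes that averaged under 15 FPKM were Ndufa4l2, Cox6a2, Cox7a1, Atp5s, Atp5sl and Ndufa11. The 4 genes below the filter were all complex IV isoforms. Cox7b2 and Cox8c, forms known from testis, were listed at 0 in every library. Cox8b, a form known from heart and skeletal muscle, was listed at 0 except for 0.389 FPKM in KO 2. Cox4i2, a form known from lung, stood at 0.336 and 0.359 FPKM in KO, against 0.787 and 0.829 FPKM in WT, and at 1.02 FPKM in MUT, against 0.605 FPKM in HET.

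Members of the set moved in both directions within each of the 5 complexes, as grouped by name. The 1 gene called higher in complex V, Atp5s, was counted there by name only. In complex IV the 1 gene called higher was Cox6a2, at 3.12 and 3.02 FPKM in KO. In KO against WT, 12 of 81 genes rose and 19 fell (limma, Benjamini-Hochberg adjusted p under 0.05 over all 12266 tested genes), which is 14.8% and 23.5% of the set. Among all tested genes 29.5% rose and 28.2% fell, 57.7% in all, so the share of oxidative phosphorylation genes that changed, 38.3%, was below that of the transcriptome as a whole. Their median difference was -0.05 on the log2 scale, against 0.02 over all tested genes. With quantile normalization 3 genes were called higher and 29 lower, with median-of-ratios scaling 7 and 25, and with a common sum over named rows 9 and 27. In bulk RNA, fewer cells of a type and less RNA per cell cannot be told apart.

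**Figure D1:**
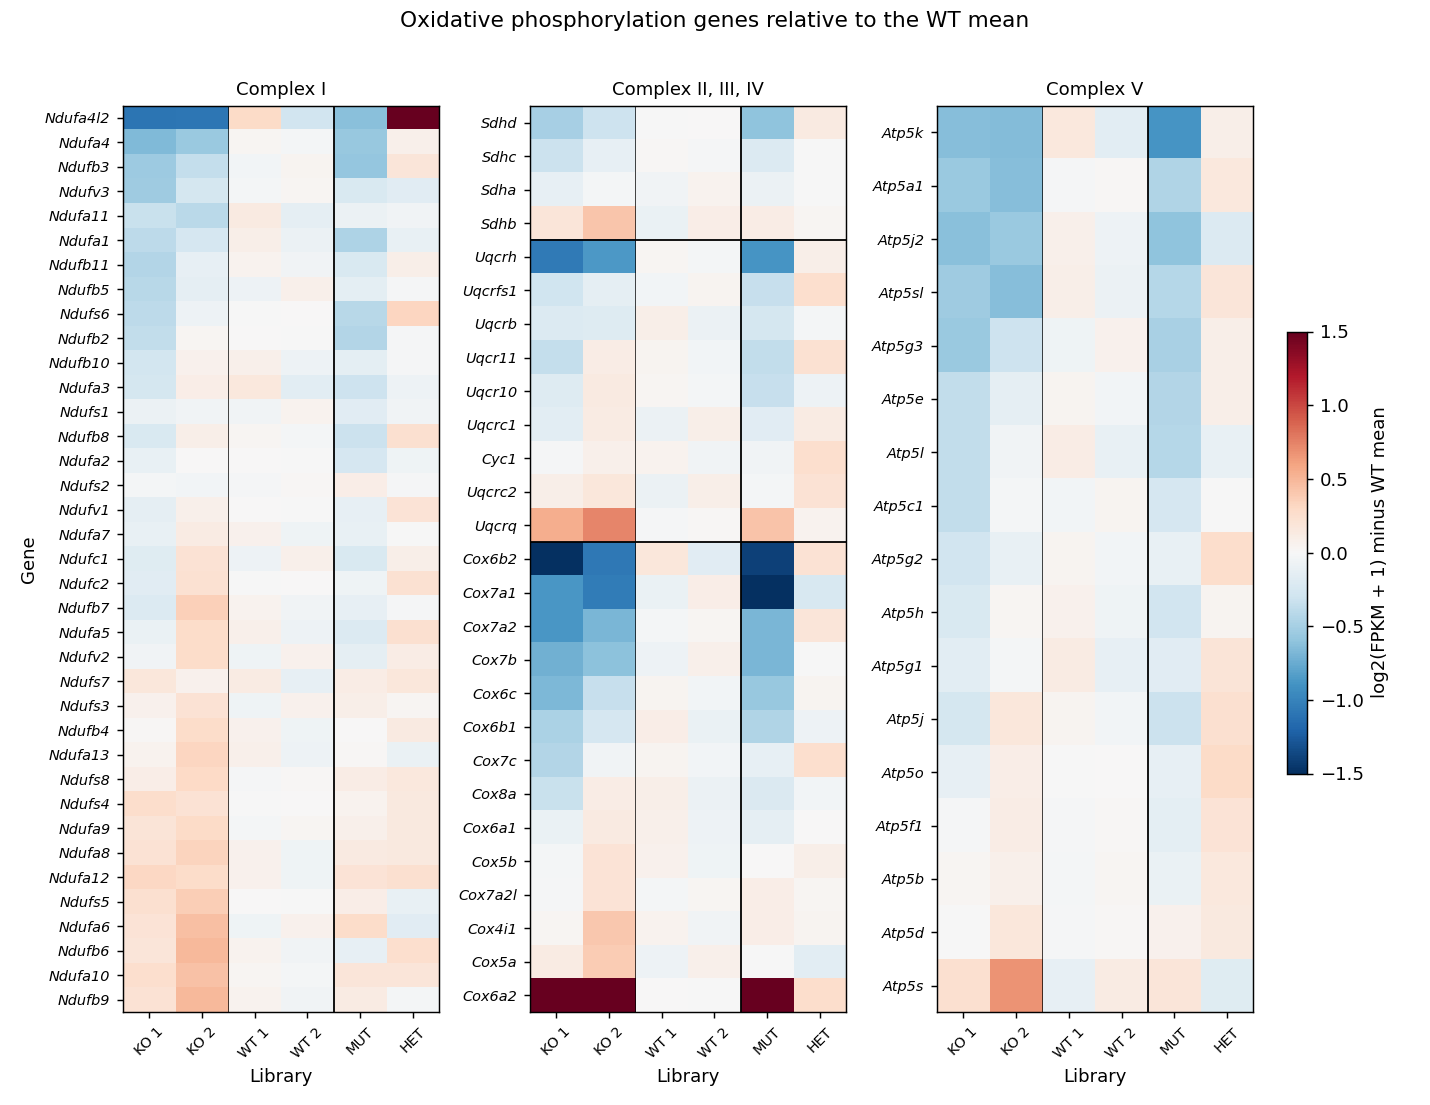
Each column is 1 library and each row 1 of the 81 tested genes, sorted within its complex by the difference between KO and WT; colour gives log2(FPKM + 1) minus the mean of the 2 WT libraries, limited to 1.5 in either direction. Uqcrh, Cox7a2, Cox7b and Ndufa4 are blue in both KO libraries and in MUT, Uqcrq and Cox6a2 are red there, and most other complex I rows are pale.

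By complex, KO minus WT had a median of 0.02 in complex I, -0.15 in complex II, -0.03 in complex III, -0.18 in complex IV and -0.20 in complex V. Complex I had 8 genes that rose, 6 that fell and 23 not called. Complex IV had 1 that rose, 6 that fell and 7 not called, and complex V had 1 that rose, 5 that fell and 11 not called. Complex II had 1, 1 and 2, and complex III 1, 1 and 7 in the same order. No test compared the complexes with each other.

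**Figure D2:**
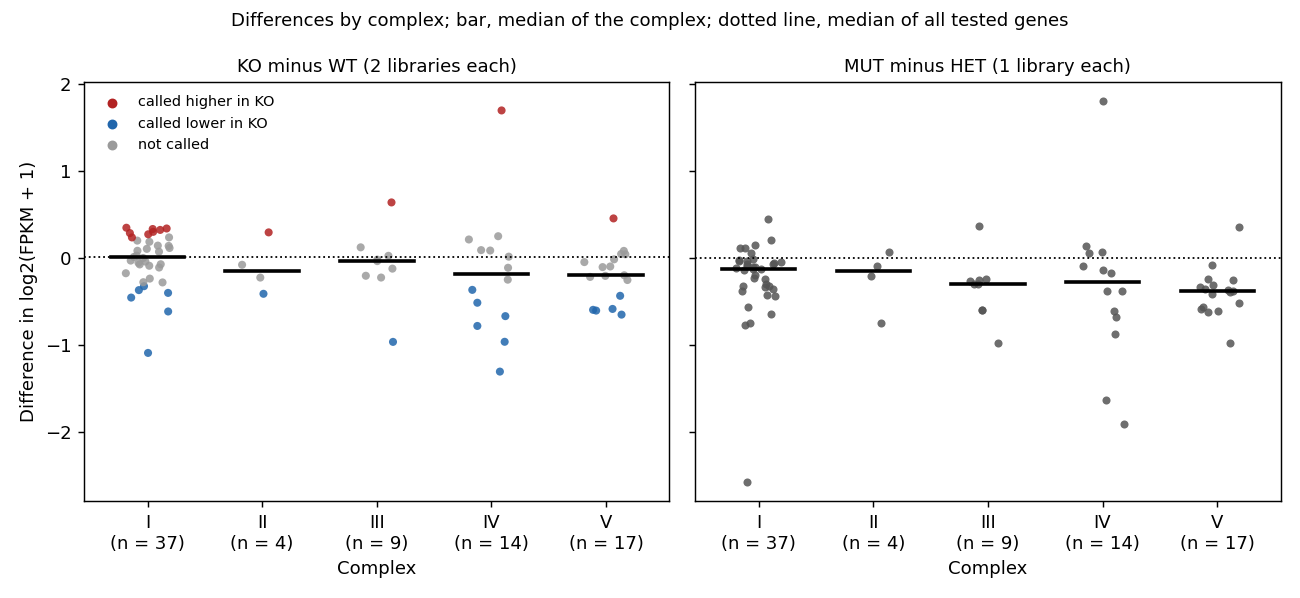
Each point is 1 gene, with the complexes on the horizontal axis and the difference in log2(FPKM + 1) on the vertical axis, KO minus WT on the left and MUT minus HET on the right; black bars are medians and the dotted line is the median of all tested genes. Medians of complexes IV and V lie at -0.18 and -0.20 on the left, and medians of all 5 complexes lie below the dotted line on the right.

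Summed over its genes, complex V had 4143 and 4652 FPKM in KO, against 5286 and 5025 FPKM in WT, and 4075 FPKM in MUT, against 5545 FPKM in HET. Complex IV had 3737 and 4626 FPKM in KO, against 4680 and 4354 FPKM in WT, and 3941 FPKM in MUT, against 4679 FPKM in HET. Both WT sums of complex V lay above both KO sums, while those of complex IV overlapped. For complex I the sums were 4591 and 5405 FPKM in KO, against 5120 and 4821 FPKM in WT, and 4498 FPKM in MUT, against 5205 FPKM in HET. Complex III gave 1737 and 2023 FPKM in KO, against 1881 and 1822 FPKM in WT, and 1656 FPKM in MUT, against 1958 FPKM in HET. Complex II gave 305 and 343 FPKM in KO, against 342 and 357 FPKM in WT, and 305 FPKM in MUT, against 359 FPKM in HET. The KO to WT ratio was 0.853 for complex V, 0.926 for complex IV and 0.929 for complex II. For complexes I and III it was 1.01 and 1.02, on the other side of 1 from the 0.948 to 0.976 and 0.979 to 0.985 of the other scalings. Within the complex III sum, Uqcrq alone held 518 and 588 FPKM in KO, against 350.1 and 357 FPKM in WT. In KO minus WT 6 of the 9 complex III genes were below 0, so the ratio of that sum does not describe most of them. MUT to HET ratios were below 1 for every complex, at 0.735 for complex V and 0.842 to 0.864 for the others.

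Within complex I, the 7 nuclear core subunits, which carry the flavin and the iron-sulfur clusters, did not pass the test in KO (grouping by role was made after the values were seen). Their differences ran from -0.07 for Ndufs1 to 0.20 for Ndufs8. Ndufv1, the NADH-oxidizing flavoprotein subunit, had 52.6 and 61.3 FPKM in KO, against 58.0 and 57.8 FPKM in WT, and 53.0 FPKM in MUT, against 67.2 FPKM in HET. Ndufs1, the largest iron-sulfur subunit, had 38.7 and 39.7 FPKM in KO, against 39.8 and 42.7 FPKM in WT, and 36.6 FPKM in MUT, against 39.7 FPKM in HET. KO and WT ranges overlapped for Ndufv1, and for Ndufs1 both KO values lay just below both WT values.

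Of the 28 accessory subunits of complex I, which surround the core and serve assembly and stability, 8 rose, 4 fell and 16 were not called. The 8 that rose were Ndufs4, Ndufa8, Ndufa12, Ndufs5, Ndufa6, Ndufb6, Ndufa10 and Ndufb9, with differences of 0.24 to 0.35 on the log2 scale. Ndufs5, an accessory subunit of the intermembrane space side, had 229.8 and 253 FPKM in KO, against 196 and 194 FPKM in WT, and 209 FPKM in MUT, against 180.0 FPKM in HET, and its KO and WT values did not overlap (0.30 in log2 units, SE 0.10, limma adjusted p = 0.0212). None of these 8 calls was kept in each of the 16 alternative settings tried, and Ndufs4 (adjusted p = 0.0476) was kept in 6. The 4 accessory genes that fell were Ndufb3, Ndufv3, Ndufa11 and Ndufa1. Ndufb3, a membrane-arm subunit, had 81.4 and 92.2 FPKM in KO, against 115 and 123 FPKM in WT, and 79.1 FPKM in MUT, against 135 FPKM in HET. Its 3 libraries with 4OHT lay below the 3 with vehicle (-0.45 in log2 units, SE 0.10, adjusted p = 0.00328), and the call was kept in each of the 16 settings.

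Ndufa4 and Ndufa4l2 were counted with complex I by name, although the Ndufa4 protein is now placed in complex IV. Ndufa4 had 234 and 253 FPKM in KO, against 379 and 366 FPKM in WT, and 252 FPKM in MUT, against 394 FPKM in HET. It fell by 0.61 in log2 units (SE 0.10, limma adjusted p = 0.000357), with both KO values below both WT values. Ndufa4l2, a paralog known to be induced by hypoxia, had 0.0928 and 0.102 FPKM in KO, against 1.84 and 0.920 FPKM in WT, and 0.513 FPKM in MUT, against 8.01 FPKM in HET. It fell in KO by 1.09 in log2 units (SE 0.18, adjusted p = 0.000535), and the HET library stood above both WT libraries. Exons of Ndufa4l2 overlap those of Shmt2 on the opposite strand, and Shmt2 was at 82.1 and 74.5 FPKM in KO, against 47.8 and 46.1 FPKM in WT, with the higher values in KO.

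In complex II, succinate dehydrogenase, 1 gene fell, 1 rose and 2 were not called. The membrane anchor Sdhd had 62.8 and 71.7 FPKM in KO, against 89.3 and 89.5 FPKM in WT, and 58.4 FPKM in MUT, against 98.4 FPKM in HET. It fell by 0.41 (SE 0.10, limma adjusted p = 0.00553), without overlap between the groups. The iron-sulfur subunit Sdhb had 73.0 and 86.2 FPKM in KO, against 60.1 and 68.9 FPKM in WT, and 69.4 FPKM in MUT, against 65.8 FPKM in HET. It rose by 0.30 (SE 0.11, adjusted p = 0.0449), a call that was kept in 8 of 16 settings. Neither the flavoprotein subunit Sdha (-0.07, adjusted p = 0.531) nor the anchor Sdhc (-0.22, adjusted p = 0.0858) passed the test.

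In complex III the largest changes were in opposite directions and in 2 small subunits. Uqcrh, the acidic hinge subunit at the cytochrome c1 contact, lies on chromosome 4 from 116066965 to 116075071 on the minus strand (GRCm38). It had 95.6 and 110.1 FPKM in KO, against 204 and 197 FPKM in WT, and 109 FPKM in MUT, against 214 FPKM in HET. The ratio was 0.512 for KO to WT and 0.507 for MUT to HET, and the 3 libraries with 4OHT lay below the 3 with vehicle (KO minus WT -0.96 in log2 units, SE 0.10, limma adjusted p = 2.18e-05). Uqcrq, a small subunit next to cytochrome b, lies on chromosome 11 from 53427922 to 53430831 on the minus strand. It had 518 and 588 FPKM in KO, against 350.1 and 357 FPKM in WT, and 476 FPKM in MUT, against 368 FPKM in HET. Uqcrq rose in KO by 0.64 (SE 0.10, adjusted p = 0.000385), and its 3 libraries with 4OHT lay above the 3 with vehicle. Both calls were kept in each of the 16 settings.

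The subunits that carry electrons in complex III gave no call. Cyc1, cytochrome c1, had 92.5 and 98.6 FPKM in KO, against 97.1 and 90.3 FPKM in WT, and 90.5 FPKM in MUT, against 112 FPKM in HET. Uqcrfs1, the Rieske iron-sulfur protein, had 49.6 and 55.7 FPKM in KO, against 59.5 and 63.5 FPKM in WT, and 48.2 FPKM in MUT, against 73.5 FPKM in HET (-0.22, SE 0.10, limma adjusted p = 0.0839). Uqcrc1, a core protein of the matrix side, had 77.6 and 94.2 FPKM in KO, against 81.2 and 92.1 FPKM in WT, and 76.5 FPKM in MUT, against 94.0 FPKM in HET. Only Uqcrfs1 among these showed no overlap between KO and WT. The other subunits, Uqcrb, Uqcr10, Uqcr11 and Uqcrc2, differed by -0.20 to 0.13 and were not called.

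Complex IV, cytochrome c oxidase, has 10 common nuclear subunits among the genes counted with it by name. Of these 4 fell, 6 were not called and none rose. Ndufa4, which fell, was counted with complex I and is not among them. Cox7a2 had 57.9 and 65.9 FPKM in KO, against 104 and 109 FPKM in WT, and 66.0 FPKM in MUT, against 121 FPKM in HET, and fell by 0.78 (SE 0.10, limma adjusted p = 8.9e-05). Cox7b had 85.6 and 92.2 FPKM in KO, against 135 and 149 FPKM in WT, and 87.6 FPKM in MUT, against 141 FPKM in HET, and fell by 0.67 (SE 0.10, adjusted p = 0.000239). Both are small single-helix subunits, and neither overlapped between libraries with 4OHT and with vehicle. Cox6c fell by 0.51 and Cox6b1 by 0.36, calls kept in 14 and 12 of 16 settings.

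Among the 6 common subunits of complex IV that were not called were Cox4i1, Cox6a1, Cox8a and Cox7c. Cox4i1, which contacts the catalytic core and takes part in its regulation by ATP, had 683 and 884 FPKM in KO, against 694 and 644 FPKM in WT, and 717 FPKM in MUT, against 689 FPKM in HET (0.22, adjusted p = 0.176). Cox6a1 had 854 and 999.96 FPKM in KO, against 964 and 864 FPKM in WT, and 834 FPKM in MUT, against 916 FPKM in HET (0.02, adjusted p = 0.9). Cox8a had 330.0 and 451 FPKM in KO, against 442 and 392 FPKM in WT, and 359 FPKM in MUT, against 405 FPKM in HET (-0.11, adjusted p = 0.537). KO and WT overlapped for all 3 genes. Cox7c had 478 and 628 FPKM in KO, against 668 and 632 FPKM in WT, without overlap, and was not called (-0.25, limma adjusted p = 0.132). Cox7a2l, a supercomplex assembly factor related to Cox7a2, was at 112 and 131 FPKM in KO, against 112 and 116 FPKM in WT, and was not called (0.09, limma adjusted p = 0.47).

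In log2(FPKM + 1), the highest KO minus WT difference of the set was that of Cox6a2, a complex IV isoform known from few tissues. The lowest was that of a row shared by another such isoform, Cox6b2, and Fam71e2. With a pseudocount of 0.1 Ndufa4l2 was lower than that row, at -2.83 against -1.32. Cox6a2, the heart and skeletal muscle form of Cox6a1, lies on chromosome 7 from 128205435 to 128206387 on the minus strand (GRCm38). It had 3.12 and 3.02 FPKM in KO, against 0.260 and 0.245 FPKM in WT, and 4.26 FPKM in MUT, against 0.508 FPKM in HET. On the FPKM scale the KO mean was 12.1 times the WT mean, and on the log2 scale it rose by 1.70 (SE 0.13, limma adjusted p = 1.53e-06). As a share of Cox6a1 plus Cox6a2, it made up 0.364% and 0.301% in KO, against 0.0270% and 0.0284% in WT, and 0.509% in MUT, against 0.0554% in HET. Its exons overlap those of Itgad on the opposite strand, which stood at 0.114 and 0.134 FPKM in KO, against 0.180 and 0.182 FPKM in WT. Of 8 skeletal and heart muscle markers 1 passed the filter and it was not called. Those markers, with Myod1 and Ckm at or near 0 in every library, summed to 2.87 and 2.76 FPKM in KO, against 3.19 and 2.99 FPKM in WT, and to 2.19 FPKM in MUT, against 1.65 FPKM in HET. Their part in the value of Cox6a2 was not tested.

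Cox7a1, the heart and skeletal muscle form of Cox7a2, had 3.30 and 2.79 FPKM in KO, against 6.33 and 7.42 FPKM in WT, and 0.784 FPKM in MUT, against 5.67 FPKM in HET. It fell in KO by 0.96 (SE 0.12, limma adjusted p = 7.74e-05), and so differed in direction from Cox6a2, the other muscle form above the filter. The row that holds Cox6b2, a testis form, also names Fam71e2, and reads of these neighbours cannot be told apart. That row had 35.3 and 48.9 FPKM in KO, against 118 and 91.9 FPKM in WT, and 38.7 FPKM in MUT, against 121 FPKM in HET, and it fell by 1.30 (SE 0.16, adjusted p = 5.3e-05). Of 4 germ cell markers 1 was tested and fell, Tex101 was listed at 0 in every library, and the 4 summed to 0.632 and 1.13 FPKM in KO, against 4.34 and 4.69 FPKM in WT, and to 2.83 FPKM in MUT, against 3.24 FPKM in HET. Their part in the value of the row was not tested. For Cox7a1, Cox6a2 and the Cox6b2 row the 3 libraries with 4OHT lay all on one side of the 3 with vehicle.

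**Figure D3:**
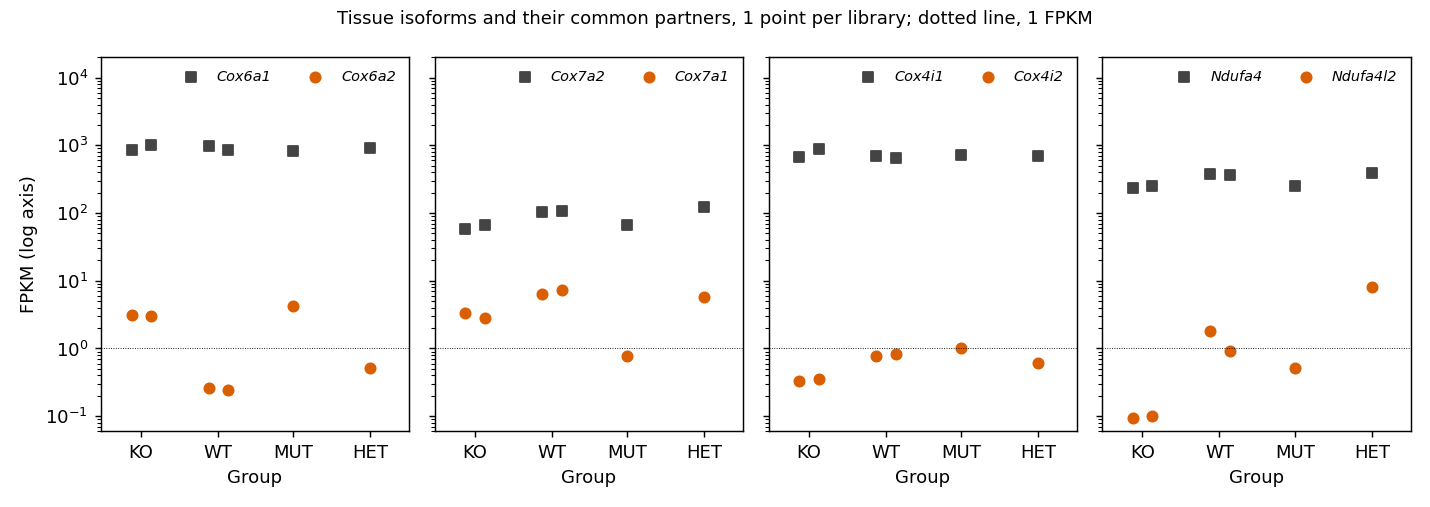
FPKM per library on a log axis for 3 complex IV isoform pairs and for Ndufa4l2 with Ndufa4, with orange circles for the form known from few tissues or conditions and grey squares for the common form. Cox6a2 lies above 1 FPKM in KO and MUT only, Cox7a1 is lowest in MUT, and Ndufa4l2 is highest in HET, while the common forms stand far above them in every library.

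In complex V the catalytic head, F1, had 1 gene that fell and 4 not called. Atp5a1, which encodes the alpha subunit, had 257 and 243 FPKM in KO, against 376 and 384 FPKM in WT, and 277 FPKM in MUT, against 425 FPKM in HET. It fell by 0.60 (SE 0.10, limma adjusted p = 0.000353). Its partner in the head, the catalytic beta subunit Atp5b, had 662 and 683 FPKM in KO, against 636 and 663 FPKM in WT, and 607 FPKM in MUT, against 723 FPKM in HET, and was not called (0.05, adjusted p = 0.688). Alpha and beta stand in equal number in the enzyme, and whether their genes differed from each other was not tested. Exons of Atp5a1 overlap those of Haus1 on the opposite strand, and Haus1 was at 9.69 and 11.2 FPKM in KO, against 20.8 and 19.9 FPKM in WT. The part of this overlap in the value of Atp5a1 was not tested.

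Among the membrane parts of complex V, Atp5k and Atp5j2, which encode the small subunits e and f, both fell. Atp5k had 339 and 336 FPKM in KO, against 593 and 473 FPKM in WT, and 286 FPKM in MUT, against 561 FPKM in HET (-0.65, SE 0.12, limma adjusted p = 0.000942). Atp5j2 had 206 and 216 FPKM in KO, against 335 and 303 FPKM in WT, and 210.3 FPKM in MUT, against 276 FPKM in HET (-0.59, SE 0.10, adjusted p = 0.000519). Libraries with 4OHT were below those with vehicle in both genes. Atp5l, subunit g, was not called at -0.21 (adjusted p = 0.176), and it has 8 near-identical pseudogene copies. Atp5k has 1 such copy.

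The c ring, through which protons pass, is encoded by Atp5g1, Atp5g2 and Atp5g3, whose mature proteins are the same. Atp5g3 had 264 and 312 FPKM in KO, against 372 and 404 FPKM in WT, and 277 FPKM in MUT, against 414 FPKM in HET, and fell by 0.43 (SE 0.11, limma adjusted p = 0.00713). Atp5g2 had 356 and 402 FPKM in KO, against 444 and 422 FPKM in WT (-0.20, adjusted p = 0.13), and Atp5g1 153 and 167 FPKM in KO, against 185 and 157 FPKM in WT (-0.09, adjusted p = 0.485). Atp5g3 made up 34.2% and 35.5% of the 3 genes in KO, against 37.1% and 41.1% in WT, and 33.4% in MUT, against 36.7% in HET. The 4 stalk genes Atp5f1, Atp5h, Atp5j and Atp5o differed by -0.10 to 0.05 and none was called. Atp5s and Atp5sl, counted with complex V by name, were called in opposite directions, at 0.46 and -0.58.

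Across all complexes, 13 of the 19 genes called lower and 2 of the 12 called higher kept their call in each alternative setting that gave a value. The 13 were Ndufa4l2, Ndufa4, Ndufb3, Sdhd, Uqcrh, the Cox6b2 row, Cox7a1, Cox7a2, Cox7b, Atp5k, Atp5a1, Atp5j2 and Atp5sl, and the 2 were Uqcrq and Cox6a2. Of the set, 29 genes overlap exons of another gene and 7 have near-identical pseudogene copies, where the authors' counting could divide reads.

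The libraries of KO differed from each other across the set. KO 2 was above KO 1 in 71 of 81 genes, 87.7%, with a median difference of 0.22, while over all tested genes KO 2 was above KO 1 in 55.3% with a median of 0.02. WT 2 was above WT 1 in 34 of 81 genes, 42.0%, with a median of -0.05, against 55.9% of all tested genes with a median of 0.02. On the log2(FPKM + 1) scale no gene of the set reached a 1.5-fold difference between replicates, though Ndufa4l2, at 1.84 and 0.920 FPKM in WT, did on the FPKM scale. Without KO 1 the set's median of KO minus WT was 0.07, against 0.04 over all tested genes, and without KO 2 it was -0.19, against 0.004. Without WT 1 it was -0.03, against -0.001, and without WT 2 it was -0.06, against 0.04. These fits leave 1 library in a group, so their counts of calls are not given. The sign of the set's median thus turned on which KO library was kept. The share of FPKM on unnamed rows was also highest in KO 2, at 14.2%, against 8.26% to 11.4% in the other libraries.

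MUT against HET sets cells meant to keep only the editing-deficient allele beside cells that also keep the floxed one. The 2 groups differ by 4OHT as well, and ADAR1 protein was not measured. With 1 library in each group this comparison has no test. MUT lay below HET in 68 of 81 genes, 84.0%, against 49.4% of all tested genes, with a median of -0.25 against 0.01 over all genes. At a fold of 1.5, 16 genes were lower in MUT, 19.8% of the set against 16.7% of all tested genes, and 1, Cox6a2, was higher, against 14.1% of all tested genes. The 16 lay in complex I (4), complex II (1), complex III (3), complex IV (5) and complex V (3). On the same log2(FPKM + 1) scale, no gene of the set differed that much between replicates of KO or of WT, where 0.872% and 0.840% of all tested genes did. HET lay above both WT libraries in 44 of 81 genes, 54.3%, against 41.8% of all tested genes. It lay below both in 15 of 81, against 4801 of all 12266 tested genes.

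KO minus WT and MUT minus HET share no library. All 19 genes called lower in KO were also below HET in MUT, and 7 of the 12 called higher were above HET. Whatever the call in KO, MUT was below HET in 68 of the 81 genes, 84.0%. Across the 81 genes the differences correlated at Pearson's r = 0.87 and Spearman's rho = 0.79, given as a description because genes are not independent replicates, and over all 12266 tested genes at 0.87 and 0.83. The same sign was found in 71.6% of the set and in 82.1% of all tested genes. In 27 of 81 genes, 33.3%, the 3 libraries with 4OHT were all below the 3 with vehicle, against 29.3% of all tested genes. In 8, 9.88%, they were all above, against 30.6%.

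**Figure D4:**
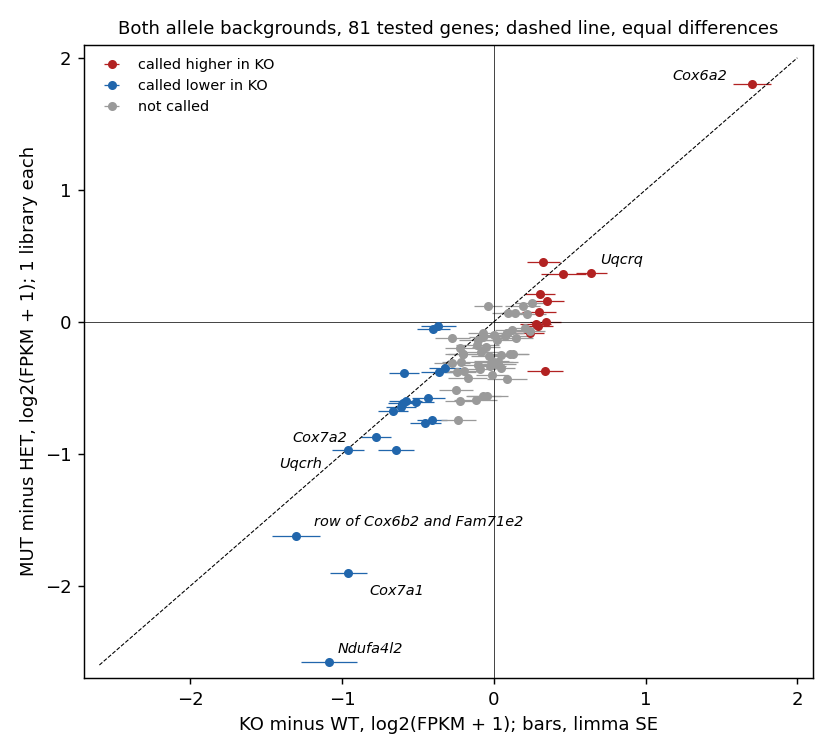
Each point is 1 of the 81 tested genes, with KO minus WT on the horizontal axis and MUT minus HET on the vertical axis, both as differences in log2(FPKM + 1); horizontal bars are limma standard errors, and the vertical axis rests on 1 library per group. Most points lie below the dashed line of equal differences, and Ndufa4l2 and Cox7a1 lie farthest below it.

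The KO effect minus the MUT effect was tested in a limma fit over all 6 libraries, with the spread taken from the KO and WT pairs. It was called for 2 of 81 genes, 2.47%, against 4.01% of all tested genes. Its unadjusted limma p was under 0.05 for 8 of 81, against 2118 of all 12266 tested genes. Ndufa4l2 differed by 1.49 in log2 units (SE 0.31, limma adjusted p = 0.0267) and Cox7a1 by 0.94 (SE 0.22, adjusted p = 0.0404), both with MUT farther below HET than KO was below WT. The sign was positive in 73 of 81 genes, 90.1%, against 53.7% of all tested genes. Without KO 1 the difference was 1.49 for Ndufa4l2 and 0.85 for Cox7a1.

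The promoters of the set were searched for motifs of known regulators. RefSeq promoter windows of GRCm38.p6, from 250 bases before to 50 after the start, were at hand for 66 of the 85 genes. The 4 shown were chosen after the values were seen, as 3 genes that fell and 1 that rose. Each is written 5′ to 3′ along the gene, with matches to the searched motifs in capitals, on either strand. They stand at chr4:116075021-116075320 for Uqcrh, chr9:79759804-79760103 for Cox7a2, chr5:108434350-108434649 for Atp5k and chr4:123718137-123718436 for Ndufs5, all on the minus strand.
Uqcrh: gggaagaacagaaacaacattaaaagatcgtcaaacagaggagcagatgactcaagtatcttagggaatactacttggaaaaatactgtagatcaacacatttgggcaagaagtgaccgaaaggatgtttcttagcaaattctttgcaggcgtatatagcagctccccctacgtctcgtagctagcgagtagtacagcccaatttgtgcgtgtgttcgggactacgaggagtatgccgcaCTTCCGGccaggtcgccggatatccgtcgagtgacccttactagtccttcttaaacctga
Cox7a2: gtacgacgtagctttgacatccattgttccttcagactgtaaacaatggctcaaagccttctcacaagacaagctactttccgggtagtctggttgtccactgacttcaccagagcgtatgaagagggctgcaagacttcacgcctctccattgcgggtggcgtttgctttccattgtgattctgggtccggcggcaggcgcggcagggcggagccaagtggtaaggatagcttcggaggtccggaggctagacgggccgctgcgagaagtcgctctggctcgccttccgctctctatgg
Atp5k: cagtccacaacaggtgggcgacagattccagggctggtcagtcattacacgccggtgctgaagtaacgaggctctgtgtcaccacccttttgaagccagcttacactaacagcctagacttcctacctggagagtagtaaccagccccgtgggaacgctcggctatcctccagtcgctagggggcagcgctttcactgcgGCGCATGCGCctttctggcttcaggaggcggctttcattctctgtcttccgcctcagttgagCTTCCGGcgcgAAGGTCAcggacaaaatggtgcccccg
Ndufs5: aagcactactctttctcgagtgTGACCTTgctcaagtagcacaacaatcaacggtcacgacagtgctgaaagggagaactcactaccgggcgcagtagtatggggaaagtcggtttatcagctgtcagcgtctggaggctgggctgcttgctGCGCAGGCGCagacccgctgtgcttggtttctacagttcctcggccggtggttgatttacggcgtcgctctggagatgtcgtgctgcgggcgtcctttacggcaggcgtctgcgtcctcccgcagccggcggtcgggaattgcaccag

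Capitals mark an ETS core in Uqcrh, an NRF1 core, an ETS core and an ERR core in Atp5k, and an NRF1 core and an ERR core in Ndufs5. Cox7a2 has no match in this window. NRF1, ETS factors such as GABP, ERR and YY1 are known regulators of nuclear genes for mitochondria. The NRF1 core was found in 24.2% of the 66 promoters, against 4.78% of all 27025 RefSeq promoters, and the ETS core CCGGAAG in 22.7%, against 9.12%. The ERR core AAGGTCA was found in 12.1%, against 4.66%, and the YY1 core ATGGCGG in 13.6%, against 4.19%. All promoters include those of genes silent in these cells. The NRF1 core stood in 3 of 8 promoters of genes that rose, 4 of 15 of genes that fell and 9 of 41 of genes not called, and the ETS core in 2, 4 and 9 of them. These matches are a description of the letters in the windows.

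Other genes of the pathway were counted in the same fit. Of 46 tested assembly factors 14 rose and 6 fell, which is 30.4% and 13.0%. Of 15 genes of electron carriers and coenzyme Q synthesis 5 rose and 1 fell, 33.3% and 6.67%. Among all tested genes 29.5% rose and 28.2% fell, so the rising shares of both lists were close to that of all genes. Surf1, an assembly factor of complex IV, had 38.6 and 42.2 FPKM in KO, against 25.1 and 23.5 FPKM in WT (0.71, limma adjusted p = 0.000146), and Cox18, which inserts a complex IV subunit into the membrane, rose by 0.68. Coq10b, a coenzyme Q binding protein, had 41.4 and 44.0 FPKM in KO, against 18.0 and 20.4 FPKM in WT (1.11, adjusted p = 7.44e-06), and Pdss2, of coenzyme Q side chain synthesis, rose by 0.62. Cycs, cytochrome c itself, was not called (0.10).

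Of 9 genes of ATP export and coupling 4 fell and 1 rose, 44.4% and 11.1%, against 28.2% and 29.5% of all tested genes. Ucp2, an inner membrane carrier of the uncoupling protein family, had 1.98 and 1.17 FPKM in KO, against 26.6 and 21.2 FPKM in WT, and 2.85 FPKM in MUT, against 32.9 FPKM in HET (-3.28, limma adjusted p = 8.44e-08). Slc25a5, an ATP/ADP carrier, had 209 and 219 FPKM in KO, against 329 and 317 FPKM in WT (-0.59, adjusted p = 0.0004), and Atpif1, the inhibitor of ATP synthase, fell by 0.63. Vdac1, an outer membrane channel, fell by 0.53, while its paralog Vdac3 rose by 0.66 (adjusted p = 0.000346).

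Of 14 citric acid cycle genes 3 rose and 2 fell (21.4% and 14.3%), among them Dld at 0.55 and Idh2 at -0.75. Of 77 mitochondrial ribosome genes 14 rose and 13 fell (18.2% and 16.9%), led by Mrps18a at 0.82 and Mrpl18 at -1.26. Of 13 regulators of mitochondrial gene expression 2 fell (15.4%) and none rose. The shares over all tested genes were 29.5% higher and 28.2% lower. Nrf1 fell by 0.32 (limma adjusted p = 0.0219), and the row of Mterf4 and Pask, whose reads cannot be told apart, fell by 2.36. No gene encoded by mitochondrial DNA is named in the tables. The 1 row on the mitochondrial chromosome carries no name and held 674 and 682 FPKM in KO, against 826 and 744 FPKM in WT, and 620.0 FPKM in MUT, against 662 FPKM in HET.

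**Figure D5:**
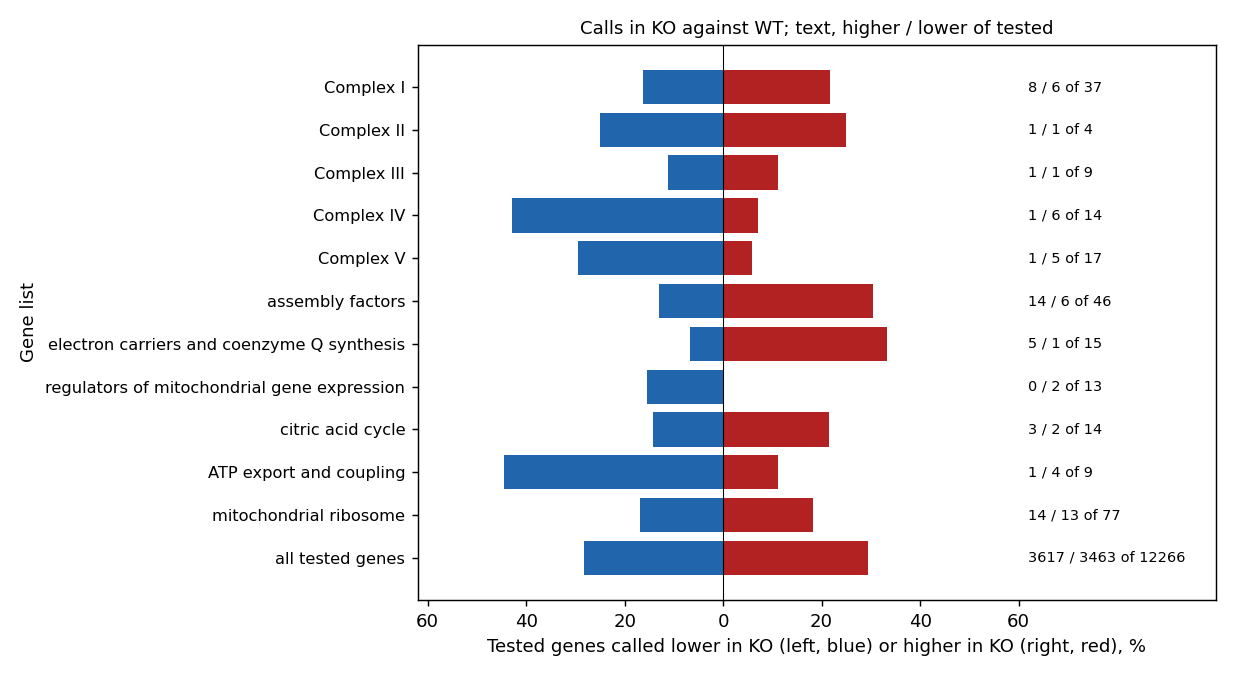
Bars give the share of tested genes called lower (left, blue) or higher (right, red) in KO against WT for each complex, for the related lists and for all tested genes, with counts at the right. Complex IV has 42.9% lower and 7.14% higher, assembly factors 13.0% lower and 30.4% higher, and all tested genes 28.2% lower and 29.5% higher.

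Many of these genes are short. The 78 tested members with a transcript length had a median of 751 bases, with 51 under 1000, against 2706 bases over all tested genes. Genes under 500 bases had a median of -0.11 in KO minus WT, -0.20 in MUT minus HET and 0.16 in KO 2 minus KO 1, and the 11 members among them -0.32, -0.52 and 0.23. Genes of 500 to 750 bases had -0.06, -0.12 and 0.12, and the 28 members among them -0.10, -0.22 and 0.26. Genes of 750 to 1000 bases had 0.04, -0.03 and 0.08, and the 12 members among them 0.10, -0.10 and 0.19. For KO minus WT, the lower medians of all genes were thus in the bins under 750 bases, as genes from 1000 bases up had 0.01 to 0.04. The 11, 12 and 4 members in the bins from 1000, 1500 and 2500 bases had -0.24, -0.27 and -0.24 in MUT minus HET. All genes of those bins had -0.04, -0.02 and 0.04. In KO minus WT these members had 0.09, 0.04 and -0.08. In KO 2 minus KO 1 they had 0.23, 0.15 and 0.06, against 0.05, 0.02 and 0.01 for all genes. With library medians equalised within bins of length, a setting chosen after seeing the data, 11 members were called higher and 19 lower, and the median of MUT minus HET was -0.18.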

How the data were processed

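Total RNA of 6 libraries was depleted of ribosomal RNA and sequenced, per the labels' protocols. The submitters' processing notes name TopHat2 2.1.1, Bowtie2 2.3.0, Cufflinks 2.2.1 and GRCm38, with no roles. The authors deposited 1 table of FPKM values per library, written with decimal commas, per the file headers. Strand use in counting is not given in the sources used here.

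Groups came from the sample titles. Each table had 24879 rows, of which 1021 carried no gene name and 561 named several genes. Symbols were split at commas, and for a symbol on several rows the row of highest mean was used. Genes with at least 1 FPKM in at least 2 of 6 libraries (12266) were tested on log2(FPKM + 1), a scale that understates changes of low genes, with limma 3.58.1 in R 4.3.3 (trended eBayes, two-sided, Benjamini-Hochberg adjustment over all tested genes, called under 0.05). KO against WT used 4 libraries and the difference of effects all 6. The fit was tested on simulated data. Read depth is unknown, so no counting intervals are given. Exon overlaps, lengths and coordinates came from GENCODE M21 (GRCm38). Pseudogene copies are matches of at least 95% identity over at least 50% of a transcript. Promoters came from RefSeq GRCm38.p6.

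Named with values were the 3 genes of smallest p in complexes I, III, IV and V and the 2 in complex II, the 2 largest and 2 smallest differences, a set of known core subunits and isoforms, and the 2 genes of smallest p in each related list. Ndufs5, Cycs, Vdac1 and the other genes named within a group were added after their values were seen. The members and lists were chosen with earlier results of these data known. Alternatives varied pseudocount, filter, scaling, replicates, block, trend and fit.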

Additional observations from a re-analysis of the deposited data

Results flagged for a closer look

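Ndufa4l2 and Cox7a1 had effects that differed between the allele backgrounds by a test of the difference itself. For Ndufa4l2 the KO effect minus the MUT effect was 1.49 on the log2 scale (limma adjusted p = 0.0267), with KO minus WT at -1.09 and MUT minus HET at -2.57. HET held 8.01 FPKM, against 1.84 and 0.920 FPKM in WT, so the vehicle libraries differed as well. Over the alternatives that gave a value the difference ran from 0.89 to 1.77, with adjusted p from 2.25e-05 to 0.5. For Cox7a1 it was 0.94 (limma adjusted p = 0.0404), with KO minus WT at -0.96 and MUT minus HET at -1.90, and it ran from 0.32 to 1.56, with adjusted p from 0.00162 to 0.219. MUT and HET have 1 library each, which the fit assumes to vary like the KO and WT pairs.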

How the results depend on the processing

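The 12 genes called higher and 19 lower in KO against WT were 4 and 14 with no filter on low values, 7 and 25 with median-of-ratios scaling, and 3 and 29 with quantile normalization. Leaving out 1 replicate gave 2 to 19 higher and 15 to 35 lower, with the median of the set from -0.19 to 0.07. With a common sum over named rows there were 9 and 27. With the replicate block there were 15 and 24, and 3 genes in the difference of effects, where the same number in KO and WT marks no shared batch in the labels and same-numbered deviations correlated at 0.18 over all tested genes and 0.02 over the set.

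Without single replicates the difference of effects ran from 1.20 to 1.77 for Ndufa4l2 and from 0.84 to 1.04 for Cox7a1. The 2 genes called in the difference of effects became 1 with a pseudocount of 0.1 and with a pseudocount of 5. The same held with a common sum over named rows and with length bins equalised. The 2 called genes became 0 with no filter (limma, 7 at an unadjusted p under 0.05). They became 0 with a mean FPKM of at least 5 (limma, 6 at an unadjusted p under 0.05), where neither of the 2 genes has a value. In MUT against HET, 1 gene at 1.5-fold higher became 0 at a mean FPKM of at least 5 and 2 with length bins equalised, and 16 lower became 3 at 2-fold. The cause was not tested. With both replicates kept, the median of KO minus WT ran from -0.14 to -0.03 and that of MUT minus HET from -0.28 to -0.18. The complex V sum ran from 0.815 to 0.853 for KO to WT and from 0.721 to 0.767 for MUT to HET.

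For the genes of the naming rule, 408 values in alternatives kept direction and call, 11 gained a call, 10 lost it, 16 changed sign without a call in either fit, and none reversed. The lost calls among these named genes were those of Sdhb in 8 settings and Atp5g3 in 2 (limma adjusted p = 0.0658 with no filter). The rule took in part the genes of smallest p, so this tally does not describe the other called genes. Of all members, 13 of the 19 called lower and 2 of the 12 called higher kept their call in every alternative. With 2 replicates per group and depth unknown, a gene not called is not shown to be unchanged.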

Other observations

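Other cell type marker lists, whose part in the results above was not tested, gave these counts in KO against WT. All 3 tested neural markers fell, with sums of 41.7 and 55.8 FPKM in KO, against 145 and 159 FPKM in WT, and 48.7 FPKM in MUT, against 176 FPKM in HET. Of 3 tested macrophage markers 2 fell, Laptm5 and a row that holds Cd68 together with Eif4a1 and Senp3, whose reads cannot be told apart, and Tyrobp was not called at 0.35. Of 3 tested adipocyte markers 2 fell, and of 3 tested endothelial markers 1 rose and 2 fell.

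Among the assembly factors, those of complex II stood on both sides. Sdhaf1 fell by 0.60 and Sdhaf4 by 0.47, while Sdhaf2 rose by 0.31 and Sdhaf3 by 1.13 (limma adjusted p = 0.00364). Sdhaf3 stood at 11.9 and 25.4 FPKM in KO, against 6.54 and 8.45 FPKM in WT, so much of its rise came from KO 2. In MUT it was at 7.61 FPKM, below the 10.1 FPKM of HET. Of the complex IV factors Pet100 fell by 0.65, Coa4 rose by 0.48 and Coa5 rose by 0.46. These genes were picked after their values were seen.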
